A study of Mus musculus with 29 samples.

Results

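Male mouse embryonic stem cells kept for 16 passages in 2i/L were compared with cells of the same lines kept for 16 passages in S/L. Cells of lines J-34, J-35 and also J-37 were moved at passage 4 into one medium or the other and harvested at passage 20 (p20), so the comparison takes 6 of the 29 libraries of the series, 3 for 2i/L p20 and 3 for S/L p20. They were picked by the medium, line and passage in their labels, and each line gave 1 library per medium. The assay was RRBS (reduced representation bisulfite sequencing), in which CpG-rich restriction fragments are sequenced after bisulfite treatment has turned unmethylated cytosines into bases read as T. Nothing in the labels says that a line was cultured in replicate, so differences between lines, cultures and libraries cannot be told apart. The SDs over the 3 lines below hold these together. The p-values test differences between media, passages or classes of tiles with the lines as replicates, and do not test the spread itself.

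2i/L is a medium with LIF, a cytokine that holds embryonic stem cells undifferentiated, and 2 inhibitors, one of the kinases Mek1/2 and one of the kinase Gsk3. S/L holds serum and LIF and leaves both pathways open. In dividing cells the maintenance methyltransferase Dnmt1 and its partner Uhrf1 copy CpG methylation to the new DNA strand, Dnmt3a and Dnmt3b with the cofactor Dnmt3l add it anew, and Tet enzymes oxidise it. 2i medium is known for lowering methylation across the mouse stem cell genome, and gametic imprints and promoters of germline genes are the classes that readers of such data follow most closely. The question the comparison addresses is how much methylation is left after long culture in 2i/L, as a fraction of the S/L level, and how far the lines differ in it.

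Reads over CpGs numbered 16393572 to 17791544 in the 6 libraries, which listed 1582826 to 1614449 CpGs each. The comparison used the 844911 autosomal CpGs with at least 5 reads in every one of the 6 libraries. Their reads were summed in non-overlapping 1000 bp tiles with at least 3 such CpGs, which gave 77898 tiles with a median of 4 CpGs and 66.0 reads per tile and library. A tile is called methylated below where its mean S/L p20 level was 50% or more, which held for 37190 tiles, 47.7% of all. Within a group no pair of libraries had identical counts at more than 4.76% of CpGs, so all were counted as separate.

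The sequences of 4 promoters described below are shown first, because they carry the most legible examples: Tex101, Dazl and Plagl1 lost most of their methylation in 2i/L, and Mitf kept more than most. Each is the RefSeq window of GRCm38.p6 from 250 bases before the gene start to 50 after it, 5′ to 3′ on the gene's strand, and capitals mark the CpGs that were measured in all 6 libraries. The windows are chr7:24672001-24672300 on the minus strand for Tex101, chr17:50293571-50293870 on the minus strand for Dazl, chr10:13090582-13090881 on the plus strand for Plagl1 and chr6:97991533-97991832 on the plus strand for Mitf, all in GRCm38.p6. The files use mm9 and came with no mm9 genome, so windows were placed on the files' CpGs by the spacing of their CpGs.
Tex101: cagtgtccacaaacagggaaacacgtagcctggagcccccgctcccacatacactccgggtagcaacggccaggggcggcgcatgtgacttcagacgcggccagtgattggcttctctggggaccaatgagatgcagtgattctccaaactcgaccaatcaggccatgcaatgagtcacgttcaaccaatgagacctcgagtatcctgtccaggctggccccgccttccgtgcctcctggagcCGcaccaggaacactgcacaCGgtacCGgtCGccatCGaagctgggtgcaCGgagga
Dazl: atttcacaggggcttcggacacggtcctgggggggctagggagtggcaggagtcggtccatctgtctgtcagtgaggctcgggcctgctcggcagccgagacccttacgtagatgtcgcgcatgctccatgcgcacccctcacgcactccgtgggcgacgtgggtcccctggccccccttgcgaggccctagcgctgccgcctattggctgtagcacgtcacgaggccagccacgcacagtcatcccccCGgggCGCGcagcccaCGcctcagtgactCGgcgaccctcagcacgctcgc
Plagl1: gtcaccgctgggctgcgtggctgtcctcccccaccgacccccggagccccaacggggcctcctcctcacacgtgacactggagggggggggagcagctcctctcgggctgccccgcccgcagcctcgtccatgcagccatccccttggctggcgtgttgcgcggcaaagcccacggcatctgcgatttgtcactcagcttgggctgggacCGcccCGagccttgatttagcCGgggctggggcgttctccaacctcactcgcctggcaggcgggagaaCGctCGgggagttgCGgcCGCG
Mitf: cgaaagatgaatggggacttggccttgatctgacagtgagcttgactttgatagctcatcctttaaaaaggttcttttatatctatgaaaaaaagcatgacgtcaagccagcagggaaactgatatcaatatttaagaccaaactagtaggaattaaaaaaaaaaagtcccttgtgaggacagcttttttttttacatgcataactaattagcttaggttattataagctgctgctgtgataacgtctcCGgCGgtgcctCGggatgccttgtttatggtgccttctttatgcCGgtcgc

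Methylation was far lower in all 3 lines after 16 passages in 2i/L. The mean level of the shared CpGs was 13.6% in J-34, 9.89% in J-35 and 6.98% in J-37 in 2i/L p20, against 26.9%, 26.4% and 27.1% for the same lines in S/L p20. The 2i/L libraries were all below the S/L libraries, and the lines were spread out in 2i/L but close together in S/L. The means were 10.2% ± 3.32 in 2i/L and 26.8% ± 0.337 in S/L (SD, n = 3 each), a difference of -16.6 points (exact two-sided permutation test, p = 0.1, the smallest that 3 against 3 can give). CpGs at 80% or more made up 1.14%, 0.366% and 0.155% of the shared CpGs in J-34, J-35 and J-37 in 2i/L, against 16.7%, 15.7% and 16.9% in S/L. Nearly fully methylated CpGs were therefore rare in every 2i/L library.

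**Figure D1:**
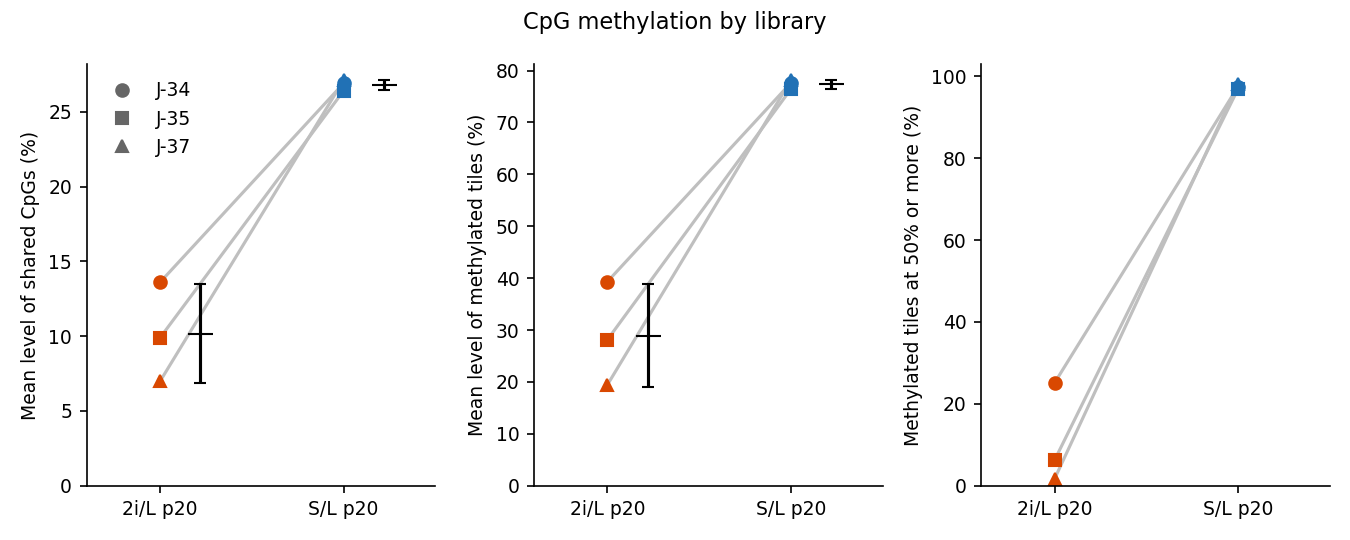
Methylation in each library, 2i/L p20 on the left and S/L p20 on the right of each panel, with grey lines joining the libraries of a line. The panels give the mean level of the shared CpGs, the mean level of the methylated tiles and the share of methylated tiles that stood at 50% or more; black bars are the mean ± SD of 3 lines and are left out of the last panel. The 3 lines fan out in 2i/L (19.4% to 39.3% in methylated tiles) and nearly coincide in S/L (76.4% to 78.1%).

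The loss was widespread over the tiles tested. limma, fitted over all 77898 tiles, called 42719 tiles lower in 2i/L p20, which is 54.8% of those tested, and 0 higher (0%), at a Benjamini-Hochberg adjusted p below 0.05 and a difference of at least 20 points. Without the 20-point requirement, 49081 tiles were lower and 438 higher, and 51055 had an unadjusted p below 0.05. Of the 37190 methylated tiles, 36936 (99.3%) were called lower, and in 36858 (99.1%) all 3 2i/L libraries were below all 3 S/L libraries. Those tiles were chosen for a high level in the same 3 S/L libraries, so the choice favours both shares and they are descriptions. The share without overlap is not given over all 77898 tiles. With the quasi-binomial count model, 42701 tiles were lower and 0 higher.

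Residual methylation, the 2i/L level of the methylated tiles summed and divided by the summed S/L level of the same line, was 50.6% in J-34, 36.7% in J-35 and 24.9% in J-37 (mean 37.4% ± 12.9, SD, n = 3). J-37 kept 49.1% of the fraction that J-34 kept. In levels, methylated tiles averaged 39.3%, 28.1% and 19.4% in 2i/L in J-34, J-35 and J-37, against 77.6%, 76.4% and 78.1% in S/L. The order of the 2i/L lines thus was not that of the S/L lines. In 2i/L, 10.0%, 28.0% and 57.2% of the methylated tiles were below 20% in J-34, J-35 and J-37. At the other end, 25.1%, 6.22% and 1.65% of them still stood at 50% or more in 2i/L in those lines. In S/L these shares are set by the choice of tiles, which used the S/L p20 level.

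**Figure D2:**
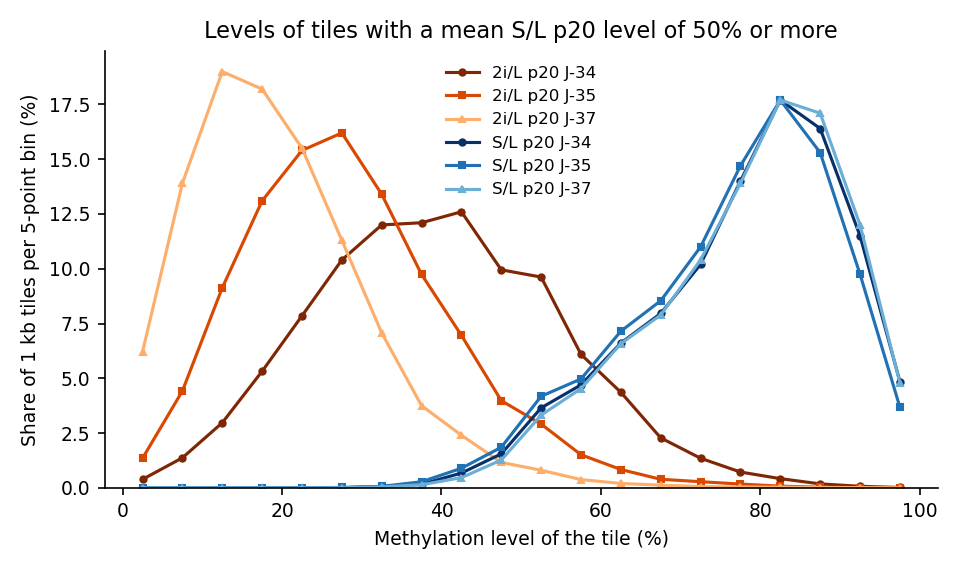
Share of the 37190 methylated tiles in each 5-point bin of methylation level, 1 line per library, 2i/L p20 in orange and S/L p20 in blue. The 2i/L curves are single broad peaks, with medians of 38.9% (J-34), 26.8% (J-35) and 17.9% (J-37), and the 3 S/L curves lie on each other with medians of 78.7% to 80.3%.

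The distributions moved as a whole, so that each 2i/L line had 1 broad peak at its own position and no separate set of tiles at the S/L level. Averaged over the 3 lines, the residual of single tiles had a median of 36.3%, and the middle 90% of the methylated tiles ran from 17.9% to 57.4%. Only 64 methylated tiles (0.172%) had an averaged residual of 80% or more, none reached 100%, and 278 (0.748%) were below 10%. By line, tiles below 10% of their S/L level numbered 248 in J-34, 915 in J-35 and 4370 in J-37. Tiles at 80% or more of it numbered 1518 (4.08%) in J-34, 258 (0.694%) in J-35 and 48 (0.129%) in J-37. Of these, 111 in J-34, 17 in J-35 and 1 in J-37 were at 100% or more, so the average over lines hides tiles that stayed high in 1 line.

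The spread between lines was larger in 2i/L than in S/L. The median SD of a methylated tile over the 3 lines was 11.1 points in 2i/L and 5.25 points in S/L. It was 6.48 points in 2i/L without the J-34 library, 13.9 without J-35 and 8.18 without J-37. In S/L it was 4.17 to 4.31 points without 1 library. Leaving out a library takes the SD over fewer lines, which tends to lower its median. These values are therefore not on the scale of the 3-line SDs. Binomial counting of independent reads would give 5.97 points in 2i/L and 5.58 points in S/L at these depths. CpGs of a tile share reads, which makes counting values too low, while a median SD over 3 values tends to lie below the true SD. The S/L value lay below its counting value. The counting values therefore serve only as a rough scale. Once each line was scaled to the mean level of the 3 lines (a setting added after the values were seen), the median SD of 2i/L tiles was 6.43 points. This setting takes out the difference in overall level by construction.

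The order of the lines was the same in most of the methylated tiles. J-34 was above J-35 and J-35 above J-37 in 66.4% of methylated tiles in 2i/L and in 15.2% in S/L. J-34 was above J-37 in 96.0% of methylated tiles in 2i/L and in 47.9% in S/L. Across tiles, the residuals of a pair of lines had a Spearman correlation of 0.473 to 0.499 (37190 tiles, neighbouring tiles are not independent). Over 1 Mb windows with at least 20 methylated tiles it was 0.602 to 0.646 (707 windows). Both are descriptions, since the lines share read depth, CpG content and the same set of fragments. The windows themselves were even: their residual ran from 44.6% to 56.5% in J-34, from 31.4% to 42.0% in J-35 and from 20.1% to 29.6% in J-37 between the 5th and 95th percentiles. Those 3 ranges do not meet, so a typical 1 Mb stretch of one line had a residual outside the range of the next.

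Tiles near full methylation in S/L kept a larger fraction than tiles at intermediate levels. Tiles at 80% to 100% in S/L p20 had residuals of 54.9%, 39.6% and 27.6% in J-34, J-35 and J-37, and tiles at 50% to 80% had 45.3%, 33.1% and 21.5%. The difference was 7.40 ± 1.90 points (SD, n = 3), in the same direction in 3 of 3 lines (exact sign-flip permutation test, p = 0.25, the smallest that 3 lines allow). Tiles at 90% to 100% in S/L stood higher still, at 60.8%, 45.7% and 33.4%. The order did not run through the whole range. Tiles at 20% to 40% had 44.5%, 36.1% and 24.9%, which in J-35 and J-37 is above the 33.2% and 21.5% of tiles at 60% to 80%, while in J-34 the 60% to 80% bin had 45.9%. Binning the tiles on the S/L p10 libraries, which are not in the ratio, gave 52.8%, 38.1% and 26.0% at 80% to 100% and 43.2%, 32.5% and 21.5% at 50% to 80%. With that binning tiles at 20% to 40% had 47.8%, 39.4% and 28.0%, above the 60% to 80% bin (43.3%, 32.3% and 21.2%) in all 3 lines and above the 80% to 100% bin in J-35 and J-37.

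CpG number moved the residual far less than the S/L level did. Among tiles at 80% to 100% in S/L, those with 10 or more measured CpGs had residuals of 54.8%, 39.8% and 27.4%, and those with 3 or 4 had 54.9%, 39.5% and 27.5%, a mean difference of 0.0908 ± 0.25 points (SD, n = 3). Among tiles at 50% to 80% the CpG-rich tiles were higher by 1.49 ± 0.565 points (exact sign-flip permutation test, p = 0.25).

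**Figure D3:**
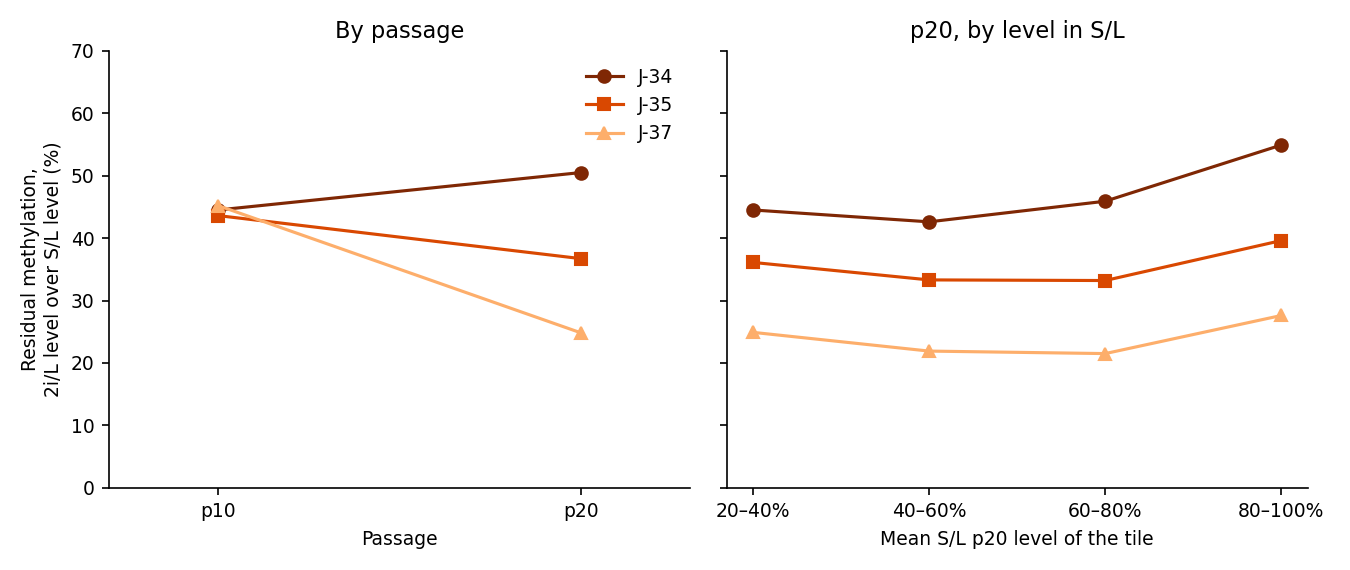
Residual methylation, the 2i/L level as a percent of the S/L level of the same line, for J-34 (circles), J-35 (squares) and J-37 (triangles). On the left, residuals at p10 and p20 in the 22134 tiles at 50% or more in S/L at both passages; the lines are within 43.6% to 45.2% at p10 and run from 24.8% to 50.5% at p20. On the right, p20 residuals by the mean S/L p20 level of the tile; all 3 lines are highest in the 80% to 100% bin.

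The spread at p20 was set against libraries of the same lines taken after 6 passages in each medium (p10). In the 22134 tiles covered in all 12 libraries and at 50% or more in S/L at both passages, residuals at p10 were 44.5% in J-34, 43.6% in J-35 and 45.2% in J-37 (mean 44.4% ± 0.825, SD, n = 3). At p20 they were 50.5%, 36.7% and 24.8% in the same lines (37.3% ± 12.9). J-34 was higher at p20 than at p10 by 6.00 points, J-35 lower, at -6.88 points, and J-37 lower, at -20.4 points. The mean difference of -7.08 points did not pass the exact permutation test over the 6 residuals (p = 0.4), and was -0.436 points without J-37 and -13.6 points without J-34. Taken from the share of methylated reads it was -4.58 points (exact permutation test, p = 0.7). The median tile SD over lines in 2i/L was 11.0 points at p20 and 5.85 points at p10. In S/L it was 5.05 points at p20 and 4.73 points at p10. The p10 libraries listed fewer CpGs and had fewer reads, and passage and library set cannot be told apart here. Each residual is a ratio within its own passage. The labels do not say whether its 2i/L and S/L libraries were converted in the same pool.

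The tiles that kept most at p20 had also kept most at p10. Residuals at the 2 passages had a Spearman correlation of 0.688 over the 22134 tiles, given as a description. The 39 of these tiles with a p20 residual of 80% or more, with a median of 83.9%, had a median residual of 88.7% at p10, against a median of 43.3% over all of them. The 147 tiles below 10% at p20 had a median of 13.0% at p10.

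The residual was similar on all autosomes. It ran from 49.1% to 51.8% over chromosomes 1 to 18 in J-34, from 35.3% to 38.7% in J-35 and from 24.2% to 26.8% in J-37, and chromosome 19 was at 54.4%, 36.8% and 25.6%. On chromosome X, which male cells hold once, 93 methylated tiles gave 52.3%, 38.5% and 23.9%.

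Read depth was not even over the autosomes in the 2i/L libraries. Reads per CpG, relative to the median autosome of the library and to the S/L p10 libraries, were 1.39, 1.38 and 1.51 on chromosome 6 in J-34, J-35 and J-37 in 2i/L p20, and 1.01 in each S/L p20 library. On chromosome 8 they were 1.45, 1.45 and 1.46 in 2i/L p20, against 0.998, 1.07 and 1.00 in S/L p20. The 2i/L libraries were above the S/L libraries on both chromosomes (exact permutation test, p = 0.1 for each, the smallest possible). Chromosomes 3, 7, 10, 11, 15, 17 and 18 reached the same p, in 1 direction or the other, so the test does not single out 6 and 8. In 2i/L J-34 the 10 Mb windows of chromosome 6 from 60 and 70 Mb were at 1.03 and 0.993. Its other windows there were at 1.37 to 1.48. Chromosome 19 was at 1.25 in 2i/L J-34 and at 0.979 and 0.980 in the other 2i/L lines, against 0.996 to 1.00 in S/L. The other autosomes lay within 0.967 to 1.09 in 2i/L p20 and 0.980 to 1.02 in S/L p20. At p10 the 2i/L libraries were at 1.02 to 1.03 on chromosome 6 and 1.01 to 1.04 on chromosome 8. The karyotype was not measured here. The residual of chromosomes 6 and 8 together was 50.4%, 36.0% and 24.6%, against 50.5%, 36.8% and 24.9% for the other autosomes without 19, and the mean residual over all autosomes without 6, 8 and 19 was 37.4%, as with them. The residual of J-34 was highest on chromosome 19, where its reads were also in excess; whether they are linked was not tested.

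**Figure D4:**
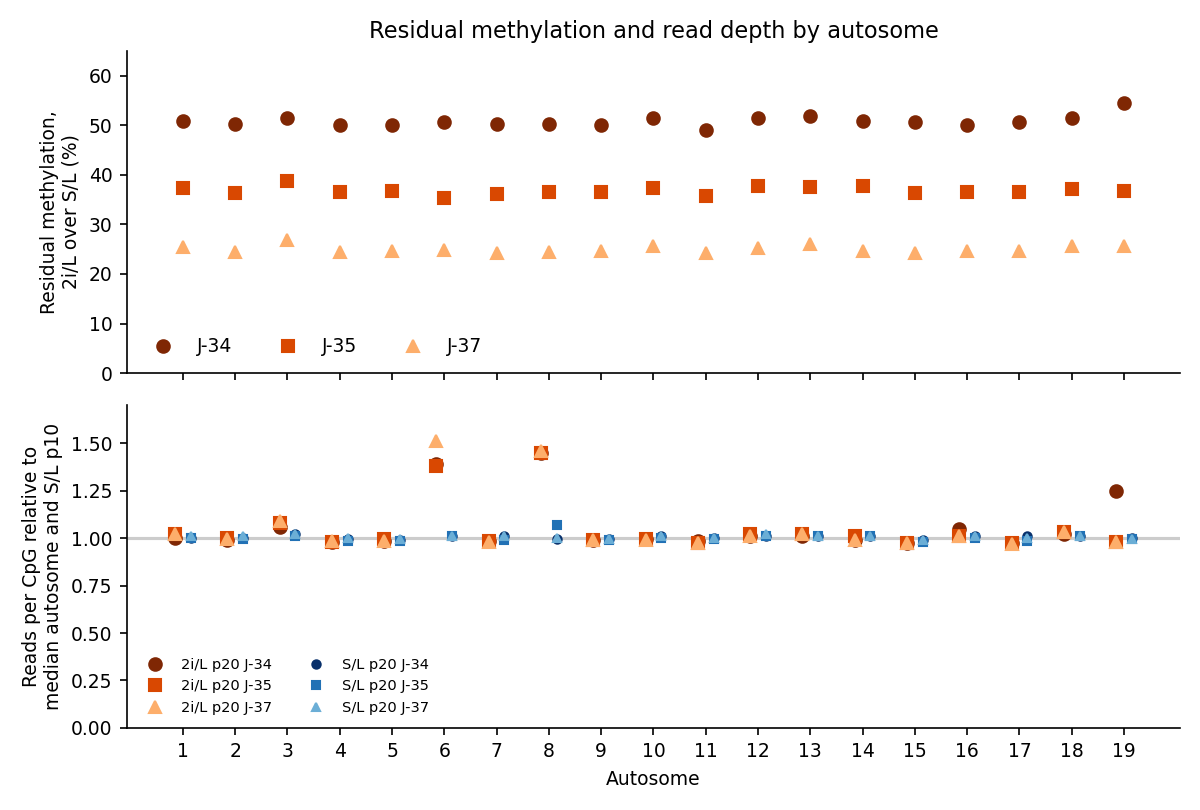
Residual methylation of methylated tiles (top) and reads per CpG (bottom) by autosome, for J-34 (circles), J-35 (squares) and J-37 (triangles), 2i/L p20 in orange and S/L p20 in blue. Residuals form 3 level rows, one per line, while reads per CpG in 2i/L reach 1.38 to 1.51 on chromosomes 6 and 8 in all 3 lines and 1.25 on chromosome 19 in J-34.

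The promoters that could be measured held little methylation to lose. Placement needed 5 or more CpGs in the window, which 20355 of 32851 RefSeq windows had, so CpG-poor promoters are not covered. Of 8854 promoter windows measured, 8534 (96.4%) were below 5% in S/L p20, and the median difference over all windows was -0.0136 points. Mean CpG levels within 250 bases of a matched gene start were 0.546% ± 0.0315 in 2i/L and 0.838% ± 0.0231 in S/L (SD, n = 3 each; 164968 CpGs). From 1000 to 2000 bases away they were 5.26% ± 1.51 in 2i/L, against 13.2% ± 0.219 in S/L. From 10000 to 50000 bases away they were 15% ± 4.81 in 2i/L, against 40% ± 0.502 in S/L. The gap between the media opened outward from the start, at the distance where S/L methylation began. Methylated tiles from 1000 to 2000 bases away had residuals of 47.5%, 35.2% and 22.8% in J-34, J-35 and J-37 (309 tiles), close to the 50.1%, 36.7% and 25.1% of those from 10000 to 50000 bases away (11644 tiles).

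**Figure D5:**
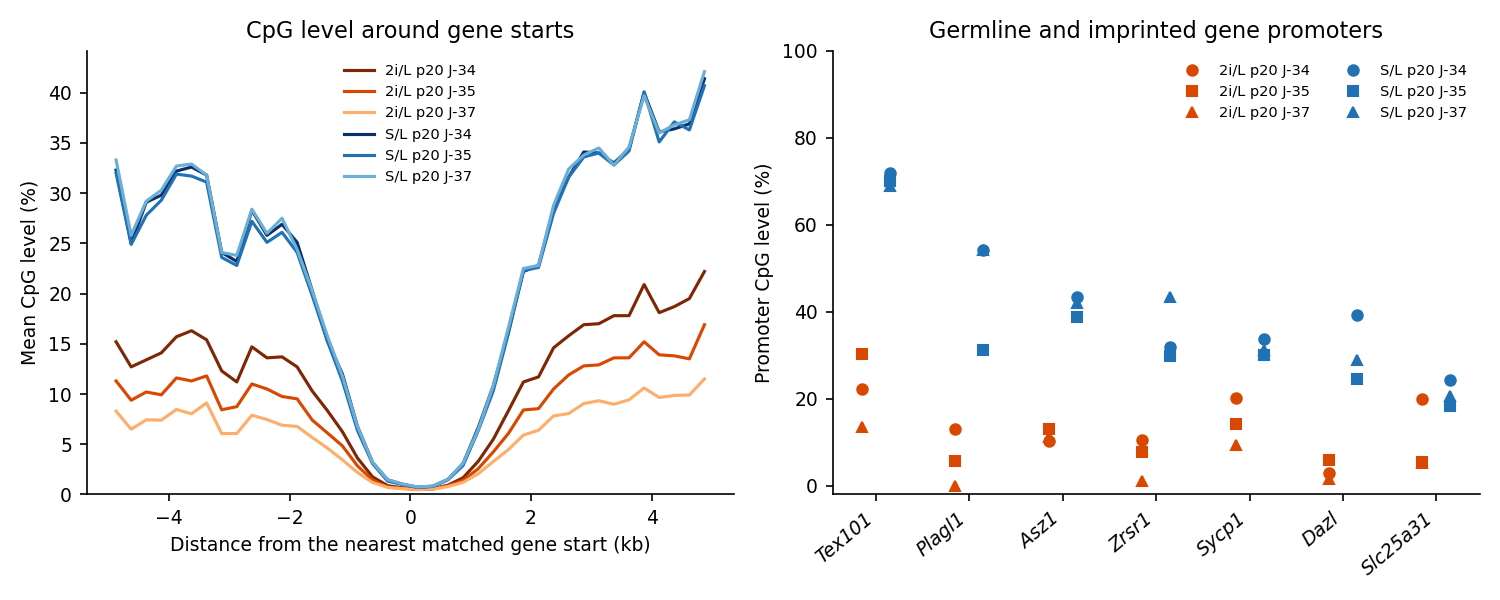
Left, mean CpG level by distance from the nearest matched gene start (negative is upstream, 250-base bins), 2i/L p20 in orange and S/L p20 in blue; all 6 libraries are near 0 at the start, and the media part from about 1 kb on. Right, promoter level of the 7 germline and imprinted list genes at 20% or more in S/L, 1 point per library (circles J-34, squares J-35, triangles J-37); only Slc25a31 has 2i/L and S/L points that overlap.

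limma over the 8854 windows called 98 promoters lower in 2i/L p20 (1.11%) and 0 higher (0%). Adjusted p without the 20-point requirement gave 148 lower and 7 higher, 734 windows had an unadjusted p below 0.05, and 101 passed as lower and 0 as higher in the quasi-binomial model. The count was 47 without the 2i/L J-37 library, and 64 and 56 without the S/L J-34 and J-37 libraries. A loss of 20 points needs an S/L level of at least 20%, which 138 windows had. Of the 60 windows at 50% or more, 59 were called. Picking windows by a high S/L level in the tested libraries favours this share, so the share is only a description. Those 60 had residuals of 44.2% in J-34, 33.6% in J-35 and 21.7% in J-37, the same line order as the tiles, and a median of 31.9% with a range of 11.1% to 62.9%.

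Germline genes, which are silenced by promoter methylation in most somatic cells, held most of the listed promoters with methylation in S/L. Of 28 germline genes, 12 had a measured window, 5 were at 20% or more in S/L, and 3 were called lower (Tex101, Asz1 and Dazl). Among all promoters 1.11% were called, and among the 138 at 20% or more in S/L, 98 were, so the germline count is no higher a share of its methylated members. Over the list's windows the median was 4.99% in 2i/L, against 12% in S/L, with a median difference of -7.37 points beside -0.0136 over all promoters.

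Tex101, a surface protein of germ cells, was at 22.3%, 30.2% and 13.6% in J-34, J-35 and J-37 in 2i/L p20, against 71.9%, 70% and 68.8% in S/L p20. The groups were far apart, and the line order was not that of most methylated tiles, since J-35 stood above J-34. The difference was -48.2 points (log2 odds difference -3.03 ± 0.52 SE; limma adjusted p = 0.000703). The 6 capitalised CpGs of Tex101 lie from 7 bases before the start to 44 after it. Their means ran from 9.60% to 29.6% in 2i/L and from 47.3% to 80.8% in S/L, so all 6 were lower in 2i/L.

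Dazl, an RNA-binding protein of germ cells, was at 2.86%, 5.88% and 1.59% in 2i/L p20, against 39.3%, 24.5% and 28.9% in S/L p20. All 3 2i/L libraries were near 0. The residual was 11.1%, the lowest among the listed promoters at 20% or more in S/L, and the difference of -27.5 points was called (limma adjusted p = 0.000427). It rests on 5 CpGs of the 28 in the window, with 38 or more reads per library. Asz1, which acts in the piRNA pathway of the male germline, was at 10.2%, 13.0% and 11.1% in 2i/L p20, against 43.4%, 38.9% and 42.1% in S/L p20. Its lines agree in both media (limma adjusted p = 0.00604), and the call is lost when 2i/L J-37, S/L J-34 or S/L J-37 is left out, with adjusted p of 0.0541, 0.0540 and 0.0557.

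Sycp1, a protein of the synaptonemal complex that joins chromosomes in meiosis, was at 20.2%, 14.2% and 9.41% in 2i/L p20, against 33.8%, 30% and 31.3% in S/L p20. The groups did not overlap, but the test was not passed (limma adjusted p = 0.260). In the quasi-binomial model the adjusted p was 4.66e-06, with a difference of -17.1 points, under the 20-point limit. At p10 it was at 19.6%, 16.5% and 24.6% in 2i/L, against 50.7%, 57.9% and 50.5% in S/L. Slc25a31, an ADP/ATP carrier of the testis, was at 19.9%, 5.51% and 5.22% in 2i/L p20, against 24.4%, 18.3% and 20.7% in S/L p20. The 2i/L library of J-34 lay within the S/L range (limma adjusted p = 0.391). Sohlh2, a transcription factor of early germ cells, was at 7.63%, 6.32% and 6.08% in 2i/L p20, against 4.65%, 6.31% and 5.36% in S/L p20 (limma adjusted p = 0.971). At p10 the same 7 CpGs were at 0%, 1.33% and 2% in 2i/L, against 16.5%, 13.1% and 18.2% in S/L, so the groups were apart at p10 and overlapped at p20.

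Imprinted genes keep methylation on 1 parental copy. Of 32 listed genes, 9 had a measured window, which need not be the imprint itself; 2 were at 20% or more in S/L, and both were called lower, as were 98 of the 138 promoters at that level in all. The median over these windows was 0.832% in 2i/L, against 0.705% in S/L. Plagl1, a zinc finger protein expressed from the paternal copy, was at 13.1%, 5.79% and 0% in 2i/L p20, against 54.2%, 31.2% and 54.1% in S/L p20. The 2i/L lines followed the order of most methylated tiles, down to a library with no methylated read among the 8 CpGs. J-35 was the low line in S/L. The difference between the media was -40.2 points (limma adjusted p = 0.000429). The capitalised CpGs of Plagl1 ran from 0% to 12.7% in 2i/L and from 31.1% to 52.0% in S/L. Neighbouring CpGs share reads. At p10 the same CpGs were at 22%, 13.8% and 21.3% in 2i/L, against 48.0%, 29.5% and 63.2% in S/L. Here S/L J-35 was again the lowest S/L library.

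Zrsr1, a splicing factor gene also expressed from the paternal copy, was at 10.5%, 7.84% and 0.980% in 2i/L p20, against 31.9%, 29.9% and 43.4% in S/L p20 (difference -28.6 points, limma adjusted p = 0.00248). The groups were apart, with J-37 lowest in 2i/L and highest in S/L. The adjusted p was 0.0702 without 2i/L J-37 and 0.0807 without S/L J-37. At p10 Zrsr1 was at 21.6%, 24.3% and 19% in 2i/L, against 32.7%, 44.8% and 36.1% in S/L. Mcts2, another paternally expressed gene, was at 0% in all 3 2i/L p20 libraries, with at least 128 reads in each library, against 17.2%, 12.7% and 0.581% in S/L p20. The S/L lines were uneven, with J-37 nearly unmethylated in both media, and the difference of -10.1 points is below the 20-point limit (limma adjusted p = 0.00604). The adjusted p was 0.0844, 0.0529 and 0.0836 without 2i/L J-34, J-35 and J-37, and 0.286 with a minimum of 10 reads. Without S/L J-34 the difference was -6.62 points (limma adjusted p = 0.220), and without S/L J-35 it was -8.88 (0.155). At p10 Mcts2 was at 9.32%, 18.1% and 6.90% in 2i/L, against 22.9%, 31.7% and 5.19% in S/L, and J-37 was again the lowest S/L line.

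The other lists had little methylation in either medium, and no member of them was called. For the 5 measured pluripotency genes of 22 the median was 0.382% in 2i/L, against 0.0720% in S/L. For 9 methylation enzymes and readers of 15 it was 0.354% in 2i/L, against 0.245% in S/L. For 4 targets of Erk signalling of 12 it was 0.533% in 2i/L, against 0.335% in S/L. The promoters of Dnmt1, Dnmt3a, Dnmt3b and Uhrf1 were among these, so promoter methylation gives no view of their activity. Marker promoters of 2 other cell types were looked up. No keratinocyte marker of 12 had a measured window. The 2 of 12 fibroblast markers measured, Twist2 and Vim, had group means of at most 1.26% in 2i/L and 1.48% in S/L. A promoter near 0 in both media does not tell cell types apart.

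Lineage genes had 5 of 19 members measured, none called at 20 points. Pax6, a transcription factor of eye and brain, has a window with 13 measured CpGs that was at 7.51%, 4.21% and 3.09% in 2i/L p20, against 0.613%, 0.658% and 0% in S/L p20. The groups did not overlap, and this small gain of 4.51 points had a limma adjusted p of 0.00670. The adjusted p was 0.104 without 2i/L J-34 and 0.147 without S/L J-37. The Pax6 gain was the largest of the 7 promoter gains of any size at a limma adjusted p below 0.05. The others, from 3.54 down to 0.771 points, were at Rfx4, Esr2, Tox2, Adora1, Efl1 and Arih1. All of these but Rfx4 were at 0% in every S/L p20 library. Such gains lie close to 0, and the conversion rate is not given in the sources used here. A second Pax6 window, with 3 CpGs, was at 20.6%, 10.7% and 9.09% in 2i/L p20, against 5.66%, 0% and 5.26% in S/L p20 (limma adjusted p = 0.155). At p10 the 13-CpG window was at 3.91%, 2.61% and 4.26% in 2i/L, against 1.66%, 1.84% and 1.05% in S/L, again with 2i/L above S/L in every line.

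The 10 called promoters with the largest losses averaged 14.0% to 30.8% in 2i/L and 74.6% to 96.0% in S/L. A1cf, a cofactor of apolipoprotein B RNA editing, was at 37%, 10.8% and 8.70% in 2i/L p20, against 86.4%, 82.4% and 91.5% in S/L p20 (limma adjusted p = 6.53e-06). Muc20, a mucin, was at 32.4%, 22.2% and 10.6% in 2i/L p20, against 88.4%, 86.6% and 86.8% in S/L p20. Both followed the line order of most methylated tiles in 2i/L. Tbc1d22a, a TBC domain protein, did not: it was at 20%, 18.5% and 20.7% in 2i/L p20, against 72.0%, 71.8% and 94.5% in S/L p20. Kcne4, a subunit of potassium channels, was at 41.9%, 16.3% and 19.2% in 2i/L p20, against 81.5%, 93.2% and 85.7% in S/L p20. Dnajc5g and Slc30a3 start head to head, share 4 measured CpGs and count as 1 region; Slc30a3, a zinc transporter of synaptic vesicles, was at 18.2%, 11.9% and 14.9% in 2i/L p20, against 72.1%, 73.5% and 78.2% in S/L p20. The other 4 were the predicted genes Gm38744, Gm33473, Gm33931 and Gm52186.

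The 10 promoters with the highest residuals among those at 50% or more in S/L kept 43.1% to 62.9%, and 9 of the 10 were still called lower. The exception, Gm33434, had a limma adjusted p of 0.0508, which was 0.0470 with a minimum of 1 read and 2.06e-07 in the quasi-binomial model. The highest was Gm6566, at 70.2%, 58.7% and 35.2% in 2i/L p20, against 86.2%, 87.5% and 87.2% in S/L p20. At p10 it was at 65.8%, 83.3% and 72.2% in 2i/L, against 91.5%, 89.6% and 84.9% in S/L, so it stood high in 2i/L at both passages. Mitf, the transcription factor of melanocytes, was at 50%, 42.5% and 22% in 2i/L p20, against 86.2%, 70.3% and 92.3% in S/L p20 (limma adjusted p = 0.00337). Its 4 capitalised CpGs were uneven: the one 1 base before the start averaged 61.3% in 2i/L, against 82.8% in S/L. Its neighbour 3 bases into the transcript averaged 17.7% in 2i/L, against 75.5% in S/L. The first had as few as 10 reads in a library and the neighbour as few as 7, so their contrast rests on few reads. Apoc2, which activates lipoprotein lipase, was at 62.7%, 25.9% and 21.2% in 2i/L p20, against 86.8%, 85.9% and 72.6% in S/L p20, and Lcat, which esterifies plasma cholesterol, was at 41.2%, 37.3% and 16.8% in 2i/L p20, against 77.3%, 71.4% and 67.1% in S/L p20. With replicate line as a block the adjusted p of Gm51661, also among the 10, was 0.0552, past the limit, against 0.0306 without it. Of the 9 calls, 8 were lost when some single library was left out, the exception being Gm36875. Without 2i/L J-37 the adjusted p was 0.214 for Gm6566, 0.0853 for Mitf, 0.104 for Apoc2 and 0.152 for Lcat. Without S/L J-34 it was 0.107, 0.0606, 0.0969 and 0.116 for the same genes.

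Single tiles at the ends of the range are given in mm9. The largest loss was in a tile on chromosome 13 from 53332719 to 53332916 (3 CpGs), at 18.8%, 0% and 5.66% in 2i/L p20, against 92.1%, 97.5% and 92.0% in S/L p20. Its nearest matched gene start, that of Ror2, a receptor of Wnt5a, is 48675 bases away. It was already low at p10, at 12.5%, 14.3% and 13.8% in 2i/L, against 100%, 88.2% and 93.3% in S/L. The next, on chromosome 2 from 137513459 to 137513797, was at 24.0%, 5.71% and 10.2% in 2i/L p20, against 97.2%, 94.1% and 96.7% in S/L p20. At p10 it still stood at 50%, 64.3% and 17.9% in 2i/L, against 94.7%, 88.0% and 71.4% in S/L. The 5 largest losses ran from -85.7 to -80.7 points.

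There were 18353 tiles with an S/L mean of at least 80%, of which 54 (0.294%) kept 80% or more. A tile on chromosome 5 from 3193812 to 3193829 was at 97.0%, 96.3% and 100% in 2i/L p20, against 100% in each S/L p20 library. A tile on chromosome 6 from 85607306 to 85607331 was at 85.7%, 93.3% and 92.6% in 2i/L p20, against 95.2%, 96.1% and 97.8% in S/L p20. Both had kept their methylation at p10, the first at 93.3%, 100% and 100% and the second at 96.7%, 91.7% and 100% in 2i/L. The 5 with the highest residuals, which include these, have 3 CpGs each and as few as 15 reads in a library, and none passed the test. With a minimum of 1 read the tile from 3193812 was at -11.9 points (limma adjusted p = 0.00144), against -2.24 at 5 reads. Another of the 5, on chromosome 5 from 26492382, was then called lower, at -27.1 points (limma adjusted p = 0.00973), against -3.33 at 5 reads. No tile gained 20 points with an adjusted p below 0.05. In 2 tiles every 2i/L library was above every S/L library by over 10 points at such a p, a rule set after the values were seen. The first, on chromosome 3 from 51848575 to 51848959 (10 CpGs), was at 18.9%, 18.2% and 17.4% in 2i/L p20, against 4.52%, 3.66% and 5.73% in S/L p20 (limma adjusted p = 0.00142). It showed no such gain at p10, at 10.4%, 11.1% and 7.83% in 2i/L, against 12.8%, 11.3% and 8% in S/L. The other, on chromosome 5 from 98722328 to 98722650 (3 CpGs), was at 32.7%, 19% and 19.5% in 2i/L p20, against 7.50%, 5.88% and 2.94% in S/L p20. At p10 this tile was at 24.2%, 4.35% and 23.1% in 2i/L, against 30.8%, 14.3% and 23.8% in S/L. There 2i/L was below S/L in every line, and each line's S/L level was higher at p10 than at p20.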

How the data were processed

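Each library's file, as deposited by the authors, lists CpG positions in mm9 with a field of methylated over total read counts and a score, which is 1000 times the methylated share and was not used. Per the submitters' processing notes, BSMAP 2.89 and mm9 were used. How reads were trimmed or filtered, and the conversion rate, is not given in the sources used here. Per the labels' protocols, libraries were made with a NuGen RRBS kit and 12 barcoded reactions were pooled before conversion, without saying which. Methylated and total counts were summed per tile or promoter, turned into log2 odds with 1 added to each count, and tested with limma 3.58.1 (R 4.3.3), moderated over all features, and the script was tested on simulated data. Calls need an adjusted p below 0.05 and a difference of at least 20 points. RefSeq promoter windows (GRCm38.p6) were placed on mm9 CpGs by CpG spacing: of 20355 windows with 5 or more CpGs, 9996 matched in 1 place and 9981 were kept. Named tiles are the 5 largest losses and 5 highest residuals; named promoters are the 10 of each, plus list members. The members and lists were chosen with earlier results of these data known. Libraries pair by cell line; deviations of same-line libraries from their group means correlated at -0.00106, 0.00405 and 0.0249, and a fit with line as a block was run. The alternatives changed the read and CpG minimums, tile size, difference limit and count model, and left out each library.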

Additional observations from a re-analysis of the deposited data

How the results depend on the processing

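Every setting kept the direction of the genome-wide difference (-21.4 to -12.5 points) and of the S/L-level contrast. With a minimum of 10 reads 11264 of 35496 tiles (31.7%) and 37 of 6759 promoters (0.547%) were lower. With 1 read 85156 of 130756 tiles (65.1%) were lower and 9 higher. With 5 or more CpGs 11859 of 37990 tiles (31.2%) and 55 of 7924 promoters (0.694%) were lower. A limit of 10 points gave 16 tiles higher, and 500 bp tiles gave 1. These settings change how many features are tested or the limit itself. Leaving out 1 library gave 0 to 2 tiles higher and 47 to 88 promoters lower. The median tile SD in 2i/L over the lines left was 6.48 points (without J-34) to 13.9 (without J-35). Scaling lines to one mean gave 6.43 over all lines. The tile on chromosome 14 from 46887955 ran from -8.95 to 4.94 points and the one on chromosome 5 from 26492382 from -10.7 to 0.370 when 1 library was left out, so neither kept its direction there; with 1 read the chromosome 5 tile was called lower, at -27.1 (limma adjusted p = 0.00973). With the replicate block, the genome-wide difference was -16.6 (exact sign-flip permutation p = 0.25), 42711 tiles and 92 promoters were lower and the p20 minus p10 difference in residual was -7.08 (p = 0.5). It ended no other named call than that of Gm51661. Leaving out chromosomes 6, 8 and 19, scaling the lines and the block on the passage difference were added after the data were seen; the first gave 36098 of 66195 tiles and 74 of 7615 promoters lower. Tiles with as few as 15 reads in a library cannot resolve small differences.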
